A study of Arabidopsis thaliana with 12 samples.

Results

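A set of 74 nuclear Arabidopsis thaliana genes had transcript levels that were lower at each step of a series of 3 stages: shoot apices before floral induction (day 0), shoot apices 2 days after it (day 2), and wild-type inflorescences. The members were chosen from 33559 identifiers by their measured values. A gene had to reach 10 FPKM at day 0, to be lower by a factor of at least 1.5 at day 2 than at day 0, to be lower again by a factor of at least 1.5 in inflorescences than at day 2, and to be above 0 in inflorescences, with both factors taken on FPKM + 1. FPKM counts the fragments of a gene after scaling for the length of its transcript and for the size of the library. Of the 33280 nuclear identifiers, 12514 had at least 10 FPKM at day 0 and a value above 0 in inflorescences. Of those, 5.34% were lower by the factor at day 2 than at day 0 and 17.3% were lower by it in inflorescences than at day 2. The members, lower at both steps, were 0.591%. The values of these 3 stages chose the members and are given as a description. Levels in rosette leaves, gene structure, gene names, promoter sequence and position on the chromosomes did not enter the choice.

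The study sequenced poly(A) RNA of the Landsberg erecta (Ler) accession, with 3 libraries in each of 4 groups. Day-0 apices were untreated cauliflower-like structures of ap1 cal 35S::AP1-GR plants. Day-2 apices came from the same line after 10 µM dexamethasone. In this line both APETALA1 and CAULIFLOWER are mutant, and APETALA1 joined to the steroid-binding domain of a glucocorticoid receptor, which holds it inactive without hormone, is driven by the constitutive 35S promoter, which is not limited to the cells that normally make APETALA1. The other groups were wild-type Ler: inflorescences from which flowers older than stage 12 had been removed, and rosette leaves of flowering plants. No mock-treated apices are labelled, so 2 days of time, the dexamethasone application and the activation of AP1-GR cannot be told apart between day 2 and day 0. Between inflorescences and day 2, genotype, treatment and tissue all differ and cannot be told apart either.

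The deposited table holds a single merged value per gene and group. No difference below therefore has a replicate check, an error or a test, and the depth behind a value is unknown. In bulk tissue, fewer cells of a type and less RNA per cell cannot be told apart.

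As background, an Arabidopsis shoot apex first makes leaves, then becomes an inflorescence meristem, which produces floral meristems on its flanks. TERMINAL FLOWER 1 (TFL1) keeps the inflorescence meristem indeterminate, whereas LEAFY and APETALA1 give floral meristems their identity. APETALA1 is known to repress TFL1 and flowering-time MADS-box genes such as SVP, AGL24 and SOC1 in young floral meristems. Without APETALA1 and CAULIFLOWER, meristems that should become flowers behave as inflorescence meristems, and activation of AP1-GR turns them into flowers almost synchronously.

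Promoter sequence is shown for 4 members, 3 of them at the extremes of the set by transcript level and 1 for a motif. LSH1 had the largest first step, AGL72 and AGL71 had the largest FPKM ratios at the second step, and FAF1 was the single member whose searched window held a CArG box. Each line gives the 250 bases before the annotated start in the TAIR10.1 assembly of the Columbia accession, from RefSeq, 5′ to 3′ on the gene's own strand. Capitals mark any of the 9 searched motifs, on either strand. The FAF1 stretch is chr4:1255894-1256143 on the plus strand. The others lie on the minus strand, with LSH1 at chr5:10455682-10455931, AGL72 at chr5:21084428-21084677 and AGL71 at chr5:21088415-21088664.
FAF1: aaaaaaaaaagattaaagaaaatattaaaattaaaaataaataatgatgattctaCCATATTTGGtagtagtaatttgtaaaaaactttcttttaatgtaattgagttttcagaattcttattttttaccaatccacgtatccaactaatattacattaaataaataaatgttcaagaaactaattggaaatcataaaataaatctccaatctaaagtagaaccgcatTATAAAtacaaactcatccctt
LSH1: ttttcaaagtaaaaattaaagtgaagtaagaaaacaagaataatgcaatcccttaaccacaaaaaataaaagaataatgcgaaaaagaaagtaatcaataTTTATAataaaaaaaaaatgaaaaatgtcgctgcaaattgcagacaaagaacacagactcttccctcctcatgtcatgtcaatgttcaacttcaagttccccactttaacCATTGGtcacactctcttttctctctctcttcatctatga
AGL72: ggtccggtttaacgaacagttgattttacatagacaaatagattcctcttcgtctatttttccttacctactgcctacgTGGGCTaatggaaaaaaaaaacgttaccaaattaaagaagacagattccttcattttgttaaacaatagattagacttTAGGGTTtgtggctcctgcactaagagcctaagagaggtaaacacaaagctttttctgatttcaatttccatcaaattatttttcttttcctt
AGL71: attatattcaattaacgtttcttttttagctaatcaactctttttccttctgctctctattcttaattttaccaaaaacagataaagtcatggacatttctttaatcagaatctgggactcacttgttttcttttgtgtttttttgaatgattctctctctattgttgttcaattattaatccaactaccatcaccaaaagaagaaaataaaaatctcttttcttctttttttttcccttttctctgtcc

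In FAF1 the capitals are a CArG box, the site type bound by MADS-domain proteins, and a TATA box. In LSH1 they are a TATA box on the minus strand and a LEAFY core on the minus strand. In AGL72 they are a site II element and a telo-box on the minus strand. None of the searched motifs lies in the 250 bases shown for AGL71. A match is a string of letters and no evidence of binding, and the reads came from Ler plants, whose promoters were not read here.

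Across the 74 members, the median level was 39.3 FPKM at day 0, 16.3 FPKM at day 2 and 4.50 FPKM in inflorescences. Day-0 levels lay between 10.2 and 317 FPKM, day-2 levels between 3.09 and 149.6 FPKM and inflorescence levels between 0.272 and 68.2 FPKM. At day 0, 16 members reached 100 FPKM. In inflorescences, 39 members were under 5 FPKM and 10 of them were under 1 FPKM. The first step, day 2 minus day 0 on the log2(FPKM + 1) scale, had a median of -0.96 and ran from -3.85 to -0.59. The second step, inflorescence minus day 2 on the same scale, had a median of -1.59 and ran from -5.10 to -0.59. Over all 12514 genes the medians were -0.01 and -0.14. The shallow end of either range is the limit of the rule.

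The second step was the larger one in 58 members and the first step in 16. The first step made up a median of 38.5% of a member's log2 difference between day 0 and inflorescences, between 10.7% and 73.4%. In 25 members both steps were at least 2-fold on FPKM + 1, in 9 only the first, in 29 only the second and in 11 neither.

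**Figure D1:**
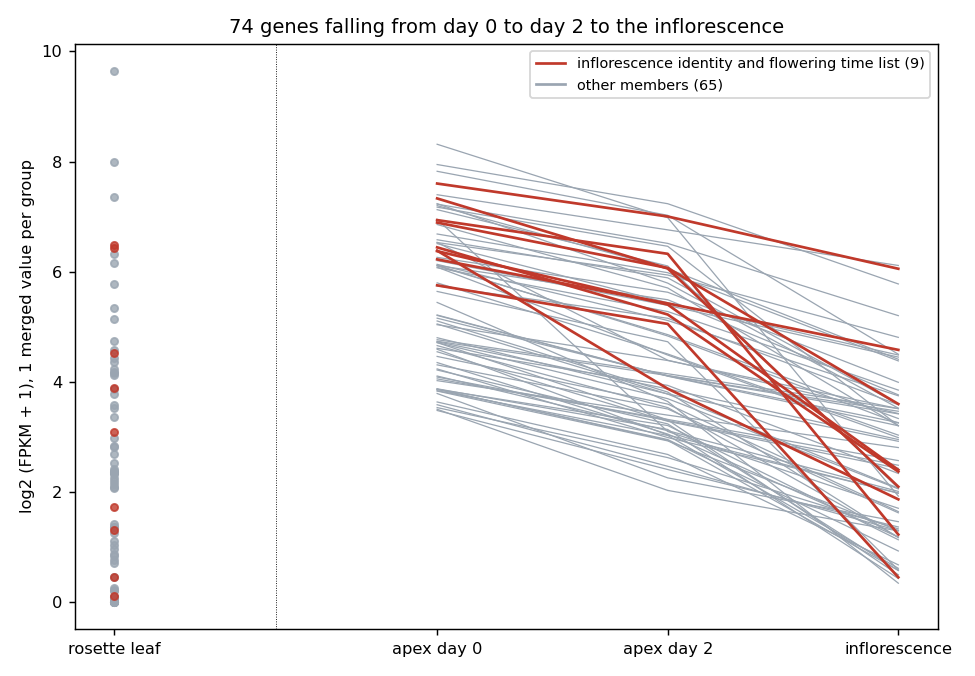
Level of each of the 74 members, as log2(FPKM + 1), at the 3 stages, with 1 merged value per group and a line per gene; red lines are the 9 members of the inflorescence identity and flowering-time list. The lines fall at both steps because the rule chose them so, and they end in inflorescences between 0.272 and 68.2 FPKM.

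Genes of inflorescence identity and flowering time formed the most populated of the lists used to describe the set. Of the 29 measured genes of this list, 17 had at least 10 FPKM at day 0, and 9 of the 17 (52.9%) were members: TFL1, FD, FDP, SVP, AGL24, FUL, AGL42, AGL71 and AGL72. With a factor of 2 in place of 1.5 the set has 25 members, of which 3 stand on the list. The background for the share is the 0.591% of all genes given above, and the list was chosen with earlier results of these data known.

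TFL1 (AT5G03840), which encodes a phosphatidylethanolamine-binding protein, had 82.4, 13.7 and 2.65 FPKM at the 3 stages, day 0, day 2 and inflorescence. Its level was 6.02-fold lower at day 2 than at day 0 and 5.16-fold lower in inflorescences than at day 2. FD (AT4G35900), the bZIP factor with which FT and TFL1 proteins form complexes, had 159.9, 65.7 and 3.28 FPKM. Its relative FDP (AT2G17770) had 86.0, 36.4 and 4.18 FPKM. The 3 genes of this module thus lay within 13.7 to 65.7 FPKM at day 2 and under 5 FPKM in inflorescences. In TFL1 the first step was the larger one, and in FD and FDP the second. The log2 steps were -2.51 and -2.01 for TFL1, -1.27 and -3.96 for FD, and -1.22 and -2.85 for FDP. Among the relatives of TFL1, FT was not a member. It was under the day-0 minimum and higher at each step, with 0.713, 4.75 and 9.45 FPKM.

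The MADS-box members fell into deep and shallow patterns. AGL71 (AT5G51870) had 122, 79.2 and 1.35 FPKM at the 3 stages, and AGL72 (AT5G51860) had 52.9, 32.2 and 0.370 FPKM. Both are close relatives of SOC1 that act with it in the floral transition of shoot meristems. Their first steps were among the shallow ones, at -0.61 and -0.70 on the log2 scale. In inflorescences AGL71 was 58.8-fold lower than at day 2 and AGL72 was 87.1-fold lower. AGL42 (AT5G62165), the remaining SOC1 relative among the members, had 73.8, 42.0 and 22.9 FPKM. In inflorescences AGL42 was thus well above AGL71 and AGL72, although the 3 were all above 50 FPKM at day 0.

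SOC1 itself, which integrates flowering signals, narrowly missed the rule. It had 203, 135 and 37.2 FPKM at the 3 stages, and its first-step factor on FPKM + 1 was 1.497. Of the 6 genes of the SOC1 clade, a list added after the values were seen, AGL14 and AGL19 were under 1 FPKM at day 0.

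SVP (AT2G22540), a repressor of flowering that is also expressed in young floral meristems, had 81.9, 41.3 and 4.29 FPKM. AGL24 (AT4G24540), its close relative and a promoter of flowering, had 118, 66.1 and 11.1 FPKM. SVP was 1.98-fold lower at day 2 than at day 0 and 9.63-fold lower in inflorescences than at day 2. For AGL24 the ratios were 1.78 and 5.94, so the second step was the larger one in both. FUL (AT5G60910), an APETALA1 relative that acts in inflorescence meristems and later in fruits, had 193, 127 and 65.4 FPKM and so kept the highest inflorescence level of the 9.

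The 8 genes of the list that passed 10 FPKM at day 0 and were not members went other ways. SPL9 and SPL15, factors of the age pathway to flowering, were lower at day 2 but not in inflorescences: SPL9 had 72.9, 33.3 and 65.2 FPKM and SPL15 16.2, 5.56 and 17.5 FPKM. SPL3 had 28.0, 17.3 and 27.7 FPKM, so its inflorescence level was back near that of day 0. SPL4, SPL5, FLM and TEM1 were lower by less than the factor, or not lower, at day 2, and SOC1 is described above.

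**Figure D2:**
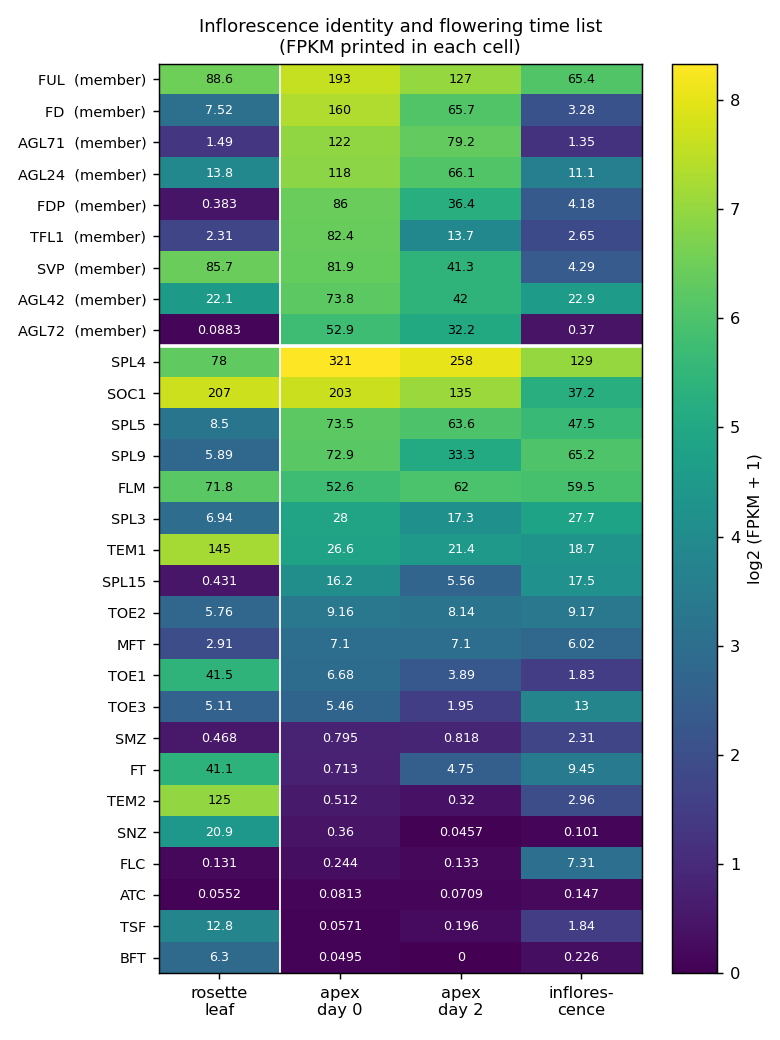
Levels of the 29 inflorescence identity and flowering-time genes, members above the white line, in leaves and at the 3 stages, coloured by log2(FPKM + 1) with the FPKM printed in each cell, 1 merged value per group. The 9 members lose level at both steps, whereas SPL3, SPL9 and SPL15 have the lowest of their 3 stage values at day 2.

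The ALOG and FAF families gave 4 members, 2 each. With a factor of 2 both ALOG members and neither FAF member met the rule, and with 5 in place of 1 added to FPKM 1 FAF member did. ALOG proteins are small DNA-binding proteins named after Arabidopsis LSH1 and Oryza G1, and several act at organ boundaries and in inflorescence architecture. LSH1 (AT5G28490) had the largest first step of the set, with 123, 7.58 and 2.26 FPKM in stage order. That step made up 73.4% of the log2 difference of LSH1 between day 0 and inflorescences. LSH1 was 16.2-fold lower at day 2 than at day 0. LSH3 (AT2G31160), also called ORGAN BOUNDARY 1, had 149.6, 54.5 and 10.5 FPKM, with the larger loss at the second step. Of the 4 ALOG genes at 10 FPKM or more at day 0, LSH4 had 72.4, 12.8 and 14.8 FPKM and LSH5 21.2, 19.9 and 5.34 FPKM, so that LSH4 fell at the first step only and LSH5 at the second step only.

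FAF proteins are plant-specific and are known to affect shoot meristem size. FAF2 (AT1G03170) had 72.6, 40.9 and 20.9 FPKM and FAF1 (AT4G02810) had 22.4, 8.75 and 4.40 FPKM. FAF3, which stood at 51.4, 7.05 and 10.7 FPKM, was low at day 2 but not lower again in inflorescences. FAF4 was under 10 FPKM at day 0. The members of both families thus had a relative with the first step and without the second.

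A further 18 members encode other transcription factors or related regulators. Their day-0 levels lay between 10.2 and 102 FPKM and their inflorescence levels between 0.492 and 19.8 FPKM, with medians of -0.88 and -1.61 for the first and second step on the log2 scale. LBD19 (AT2G45410), a LATERAL ORGAN BOUNDARIES domain gene, had 48.9, 25.5 and 0.505 FPKM and was 50.6-fold lower in inflorescences than at day 2. ERF12 (AT1G28360), an ethylene response factor family member with a repression motif, had 94.7, 58.3 and 11.1 FPKM. SAP (STERILE APETALA, AT5G35770), annotated as a WD40 repeat-like protein and not as a transcription factor, acts in flower development and organ size. It had 17.6, 8.44 and 0.492 FPKM. LBD19 and SAP were thus under 1 FPKM in inflorescences, whereas ERF12 was not.

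Regulators of epidermal cells were present with CPC and TTG2. CPC (AT2G46410), a small MYB protein that promotes root hair fate and inhibits trichome formation, had 25.2, 12.0 and 3.165 FPKM. TTG2 (AT2G37260), a WRKY factor of trichomes and seed coat, had 12.8, 3.79 and 1.76 FPKM. Of the 11 genes of the trichome and epidermis list, 5 had 10 FPKM at day 0 and CPC was the single member (TTG2 was not on the list). Another of the 5, the bHLH gene EGL3, had 32.1, 28.4 and 9.32 FPKM, with little difference between day 2 and day 0.

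Among the remaining factors, the bZIP gene EEL had 34.7, 16.3 and 10.1 FPKM, the NF-Y subunit gene NF-YB8 26.2, 16.7 and 10.4 FPKM and the zinc finger gene DOT5 21.1, 11.1 and 2.13 FPKM. BBX21, a B-box protein of light signalling, had 25.7, 16.3 and 9.71 FPKM, the zinc finger gene ZFP4 13.3, 6.62 and 1.47 FPKM and the AT-hook gene AHL23 13.3, 7.16 and 0.534 FPKM. NTM1, a membrane-bound NAC factor, had 10.2, 4.32 and 1.58 FPKM, the lowest day-0 level of the set. Reads of NTM1 may also match another place, since 16.3% of the 50-base words of its transcript occur elsewhere in the nuclear genome. The other 6 genes are known mainly by identifier and are annotated as transcription factors or DNA-binding proteins. At day 0 they ran from 16.0 FPKM for AT5G58900 to 102 FPKM for AT5G07580.

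**Figure D3:**
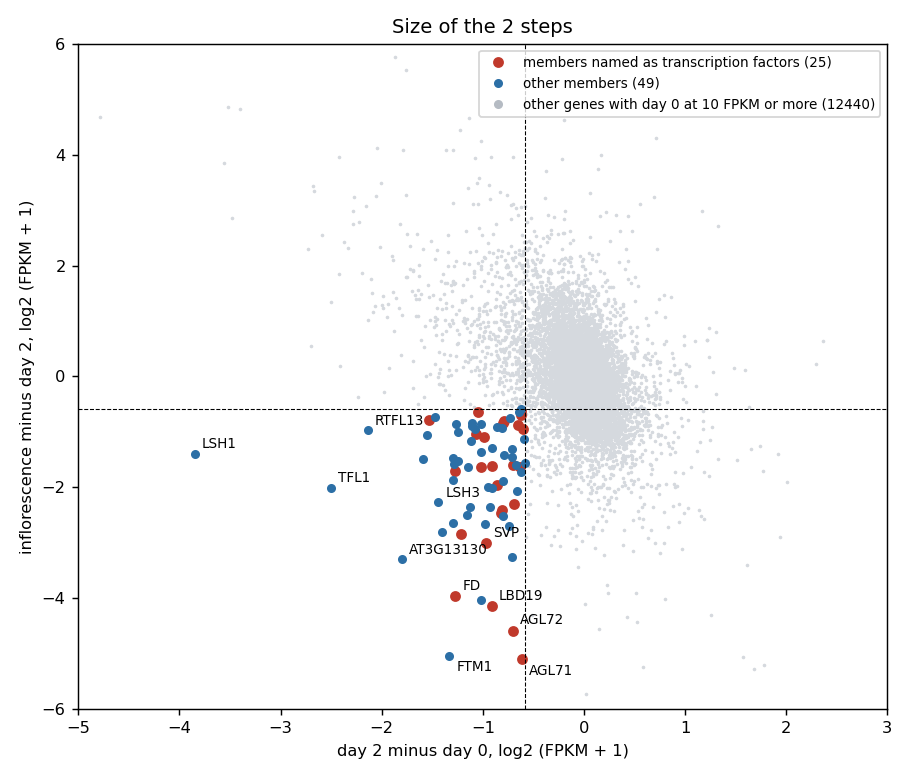
First step (day 2 minus day 0) on the horizontal axis and second step (inflorescence minus day 2) on the vertical axis, both as log2(FPKM + 1) differences of single merged values; red and blue points are members with and without a transcription factor annotation, grey points the other genes with at least 10 FPKM at day 0, of which 3 lie outside the axes, and dashed lines the limits of the rule. Members fill the lower left corner cut by the rule; LSH1 lies farthest left at -3.85 and AGL71 lowest at -5.10.

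Genes of cell division, RNA binding and growth followed. KRP3 (AT5G48820) and KRP5 (AT3G24810) encode KIP-related proteins, which inhibit cyclin-dependent kinases. KRP3 had 66.3, 37.8 and 13.4 FPKM and KRP5 68.3, 44.0 and 12.6 FPKM, and in both the second step was the larger one. They were 2 of the 5 KRP genes with 10 FPKM at day 0, in a list added after the values were seen.

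TEL2 (AT1G67770) and MCT1 (AT1G37140) encode MEI2-like RNA-binding proteins. TEL2 belongs to the subgroup related to maize TERMINAL EAR1, which is known from shoot apices. MCT1 is annotated as MEI2 C-terminal RRM only like 1. TEL2 had 24.3, 10.6 and 1.27 FPKM and MCT1 13.7, 7.80 and 0.350 FPKM. Of their closest relatives, MCT2 had 6.99, 4.02 and 0.108 FPKM and was too low at day 0 to be a member, and TEL1 had 3.93, 7.42 and 0.305 FPKM, with its highest value at day 2. The 5 MEI2-like genes ML1 to ML5, all above 10 FPKM at day 0, were not members.

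RTFL13 (AT3G23635) belongs to the ROTUNDIFOLIA-like family of small peptides, known to limit cell proliferation when overexpressed. It had 91.6, 20.02 and 9.75 FPKM at the 3 stages and was 4.57-fold lower at day 2 than at day 0, the third largest first step after those of LSH1 and TFL1. GH3.17 (AT1G28130), which conjugates auxin to glutamate, had 17.8, 6.95 and 2.96 FPKM. It was the single member among the 6 listed GH3 auxin-amido synthetase genes at 10 FPKM or more at day 0. The transporter gene ABCG4 had 11.0, 4.54 and 1.46 FPKM.

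A group of 4 members belongs to glucosinolate breakdown and the ER body, a compartment of the Brassicaceae that stores the myrosinase PYK10. NSP1 and NSP4 encode nitrile specifier proteins, which direct glucosinolate breakdown towards nitriles. PBP1 binds PYK10, and NAI2 is needed to form ER bodies. NSP1 (AT3G16400) had 146, 65.5 and 20.3 FPKM, NSP4 (AT3G16410) 10.6, 5.17 and 1.52 FPKM and PBP1 (AT3G16420) 10.3, 3.09 and 1.46 FPKM. These 3 genes lie next to each other on chromosome 3, on the same strand. Of their 50-base words, 27.7% in NSP1, 21.8% in NSP4 and 1.43% in PBP1 occur elsewhere in the nuclear genome. The assignment of reads to the nitrile specifier genes is therefore uncertain. NAI2 (AT3G15950), which lies elsewhere on the chromosome, had 13.6, 6.75 and 0.908 FPKM. Of the 12 genes of this list, 6 had at least 10 FPKM at day 0. PYK10 itself (BGLU23) was low, with 2.34, 2.00 and 1.28 FPKM, and NAI1 had 5.26, 2.79 and 1.59 FPKM. BGLU21 and BGLU22 were under 1 FPKM at all stages. NSP5 and TSA1, relatives with more than 10 FPKM at day 0, were not members. NSP5 had 79.5 FPKM in inflorescences, against 43.5 FPKM at day 2, and TSA1 had 53.0 FPKM in inflorescences, against 17.4 FPKM at day 2. The list was added after the values were seen.

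Enzymes accounted for 9 members. FTM1 (AT1G43800), a stearoyl-acyl-carrier-protein desaturase family gene whose name, FLORAL TRANSITION AT THE MERISTEM, records its expression in the meristem at floral transition, had the highest day-0 level of the set. It had 317, 125 and 2.80 FPKM at the 3 stages, a 113-fold lower level in inflorescences than at day 0. GLN1;1 (AT5G37600), a cytosolic glutamine synthetase, had 246, 149.6 and 53.9 FPKM, and APT2 (AT1G80050), an adenine phosphoribosyltransferase, 168, 107 and 68.2 FPKM. APT2 had the highest inflorescence level of all members. TPPJ (AT5G65140), a trehalose-phosphate phosphatase, had 54.6, 21.7 and 7.19 FPKM.

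Relatives of GLN1;1 and TPPJ were not members. Of the 5 glutamine synthetase genes looked up, GLN1;2 had 149, 127 and 212 FPKM and the plastid enzyme gene GS2 211, 179.9 and 489 FPKM. Both were highest in inflorescences among the 3 stages, and GLN1;3 had 190.1, 173 and 159 FPKM. Of the trehalose-phosphate phosphatases, TPPI had its highest value at day 2, with 11.8, 21.8 and 2.45 FPKM. The other enzyme members were CYP91A2, SCPL7, MEE25, AT3G22560 and AT4G24110, with day-0 levels between 15.3 and 115 FPKM.

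A further 5 members are annotated as lipid-transfer-type proteins (AT4G22490, AT1G32280 and AT3G22570) or as wound-responsive family proteins (AT4G10265 and AT4G33560). AT4G22490 had 139, 67.8 and 3.202 FPKM and AT4G10265 143, 87.1 and 8.23 FPKM. Both were above 100 FPKM at day 0 and under 10 FPKM in inflorescences. AT1G32280, AT3G22570 and AT4G33560 had day-0 levels of 13.6, 11.4 and 67.9 FPKM.

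Another 16 members are little described or of other kinds. AT5G57785 had 225, 129 and 21.7 FPKM, the third highest day-0 level after FTM1 and GLN1;1. AT3G13130 had 42.5, 11.5 and 0.272 FPKM, and its level was 156-fold lower in inflorescences than at day 0, the largest ratio of the set. Levels of the 16 lay between 13.6 and 225 FPKM at day 0 and between 0.272 and 35.8 FPKM in inflorescences. The group also holds the VQ-motif gene AT5G46780, the RIN4-family gene AT2G17660 and the MIZU-KUSSEI-like gene AT3G25640. The last 2 members are short RNA genes, the tRNA gene AT4G31265 with 90.2, 42.3 and 21.4 FPKM and the snoRNA gene AT1G03506 with 35.9, 16.2 and 8.22 FPKM. Both values are uncertain, since such RNAs are poorly captured by poly(A) selection, and all 50-base words of AT4G31265 occur elsewhere.

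Members next to the limits of the rule differed little from genes just outside them. At the day-0 limit, NTM1 and PBP1 lay inside with 10.2 and 10.3 FPKM, and AAP3 and CBF4 outside with 8.57 and 8.49 FPKM. At the first step, AT1G11125 and AT1G22250 lay inside with factors of 1.503 and 1.505, and AT4G17260 and AT2G45850 outside with 1.499 and 1.498. At the second step, CYP91A2 and NF-YB8 lay inside with 1.504 and 1.551, and AT2G14247 and AT1G25530 outside with 1.465 and 1.449. A further 4 genes met every other condition and were listed at 0 in inflorescences, among them MIR157a at 11.2 FPKM at day 0. An exact 0 can be a failed estimate in this table, since the photosynthetic gene RBCS1A is listed at 0 in leaves, against 2493 FPKM at day 0 and 8661 FPKM in inflorescences.

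Other gene groups held no member. In the counts that follow, genes of each list with at least 10 FPKM at day 0 are set beside the 12514 genes by a rule of size, which asks for a difference of at least 1 on the log2(FPKM + 1) scale and at least 5 FPKM in the higher group. At day 2, by that rule, 0.384% of the 12514 genes were higher than at day 0 and 2.16% were lower, and in inflorescences 6.15% were lower than at day 2. On the list of floral meristem and organ identity, 5 of 10 genes were higher at day 2 than at day 0 and none was lower, and 6 were lower in inflorescences than at day 2. Of the 11 KNOX, BELL and other shoot meristem genes, all 11 were lower in inflorescences than at day 2, 1 was higher at day 2 than at day 0 and none was lower there. Of the 21 touch, wounding and rapid stress genes, 9 were lower at day 2 than at day 0, and none was lower in inflorescences than at day 2. The lists of HD-ZIP III, type-A cytokinin response regulator, gibberellin oxidase, nitrate-linked, JAZ and flavonoid genes had 8, 5, 2, 7, 9 and 6 genes at that day-0 level. They held no member, which at 0.591% of all genes says little of lists this short. Together, 15 members stood on the 14 lists first used and 25 on these and the 6 added lists.

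Tissue markers moved along the same series, and none of the 37 marker genes was a member. The 8 shoot meristem markers summed to 422, 535 and 124 FPKM over the 3 stages and to 28.5 FPKM in leaves. Past the size limit, 7 of them were lower in inflorescences than at day 2 and none was lower at day 2 than at day 0. The exception was WUS, with 13.4 FPKM at day 2 and 17.8 FPKM in inflorescences. Of the 6 with at least 10 FPKM at day 0, all were lower in inflorescences, against 6.15% of the 12514 genes. None of the 6 was lower at day 2, against 2.16%. All 8 also stand on the shoot meristem list above, so they are no separate observation. The 8 leaf markers summed to 4339, 3436 and 14907 FPKM and to 16952 FPKM in leaves. RBCS1A supplied 2493, 2029 and 8661 FPKM of the stage sums and 0 of the leaf sum. That 0 may be a failed estimate, so the leaf sum cannot be set against the stage sums. The 8 pollen and tapetum markers summed to 3.42, 4.41 and 5593 FPKM and to 3.11 FPKM in leaves. All 8 leaf markers were higher in inflorescences than at day 2, against 7.15% of the 12514 genes. All 8 pollen and tapetum markers were higher there too, but none reached 10 FPKM at day 0, so they lie outside the 12514. The 8 vascular markers summed to 68.2, 65.7 and 166 FPKM and to 471 FPKM in leaves, and the 5 trichome markers to 12.0, 14.2 and 25.7 FPKM and to 8.87 FPKM in leaves. WUS, GL1 and RBCS1A were listed at 0 in leaves and GRP17 at day 2. Meristem markers other than WUS thus moved with the second step of the members and not with the first. Their part, and that of anther tissue, in the members' second step was not tested.

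Levels in rosette leaves, which the rule did not use, were low in most members. The median leaf level was 3.88 FPKM, against 29.1 FPKM over all 12514 genes. In leaves 24 members (32.4%) were under 1 FPKM, against 2.57% of all genes, and 6 of them (8.11%, against 0.28%) were listed at 0. A listed 0 in leaves can be a failed estimate, as said above for RBCS1A. Another 24 members (32.4%) had 10 FPKM or more, against 82.1% of all genes. The day-0 and inflorescence values in the comparisons that follow also entered the choice of members, and only the leaf values are new in them.

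By the rule of size, 60 members (81.1%) were lower in leaves than at day 0, against 24.5% of the 12514 genes. In leaves 3 members (4.05%) were higher than at day 0, against 18.8% of all genes. The median difference, leaf minus day 0, was -3.45 on the log2(FPKM + 1) scale, against -0.08 over all genes. The day-0 level enters both this difference and the rule. Of the 2090 genes that passed the second step and not the first, 70.3% were lower in leaves than at day 0, with a median leaf level of 10.9 FPKM. Of the 594 genes that passed the first step and not the second, 19.7% were lower and 48.5% higher, with a median of 73.0 FPKM.

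Against inflorescences, the rule of size gave no such lean, but it could not call many members lower. It asks for 5 FPKM in the higher group, and 39 members were under 5 FPKM in inflorescences. None of these could be called lower in leaves, whatever the ratio. By the rule of size 15 members (20.3%) were lower in leaves than in inflorescences, against 17.5% of all genes, and 17 (23.0%) were higher, against 16.0%. At this main setting both shares are near the background. The share of lower members is held down by that floor, so its nearness to the background says little on leaf levels. With upper-quartile scaling of the groups the split was 20 lower and 14 higher. With 5 in place of 1 added to FPKM it was 9 lower and 14 higher. No share over all genes was computed for these alternatives, so their lean cannot be set against the background. Leaf levels were below the inflorescence level in 43 members (58.1%, against 49.0% of all genes) and between the inflorescence and day-0 levels in 22 (29.7%, against 7.97%). They were above the day-0 level in 9 (12.2%, against 47.3%). The rule places every member's inflorescence level below its day-0 level. Among all genes that interval can be narrow or empty, and the shares below and above can then overlap. These contrasts with all genes therefore reflect the rule as well as leaf levels. In 41 members the leaf was lower than day 0 and not past the rule, either way, against inflorescences. That count does not mean similar levels, since members under the floor in inflorescences and lower still in leaves fall in it.

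Genes with the lowest leaf values came from several roles. FTM1 had 0.0647 FPKM in leaves, against 317 FPKM at day 0, a log2 difference of -8.22. AGL72 had 0.0883 FPKM in leaves, against 52.9 FPKM at day 0, LBD19 0.0667 against 48.9 FPKM, and FDP 0.383 against 86.0 FPKM. RTFL13, SAP, AT1G12805, AT1G29270, AT1G32280 and the tRNA gene were listed at 0 in leaves, which can be a failed estimate. TEL2, DOT5 and AHL23 had 0.00883, 0.0201 and 0.0104 FPKM. TFL1 had 2.31 FPKM in leaves, against 2.65 FPKM in inflorescences, and LSH1 3.43 against 2.26 FPKM, so that leaves and inflorescences were similarly low in both. FAF2 differed from these: it had 0.372 FPKM in leaves, against 20.9 FPKM in inflorescences.

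The 9 members with more in leaves than at day 0 were GLN1;1, AT5G03204, AT1G27020, SVP, AT5G46780, BBX21, AT5G58900, ZFP4 and NTM1. By the rule of size GLN1;1, AT5G03204 and AT1G27020 were higher. GLN1;1 had 803 FPKM in leaves, against 246 FPKM at day 0 and 53.9 FPKM in inflorescences. AT1G27020 had 164 FPKM in leaves, against 23.1 FPKM at day 0 and 2.94 FPKM in inflorescences, 55.6-fold over the inflorescence level. AT5G03204 had 254 FPKM in leaves, against 68.5 FPKM at day 0. SVP had 85.7 FPKM in leaves, nearly its 81.9 FPKM at day 0, and 19.97-fold its inflorescence level. FUL stood at 88.6 FPKM in leaves, against 193 FPKM at day 0. SVP, known to act in leaves as well as in meristems, and FUL thus had high leaf levels, whereas TFL1, FDP, AGL71 and AGL72 had at most 2.31 FPKM in leaves.

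**Figure D4:**
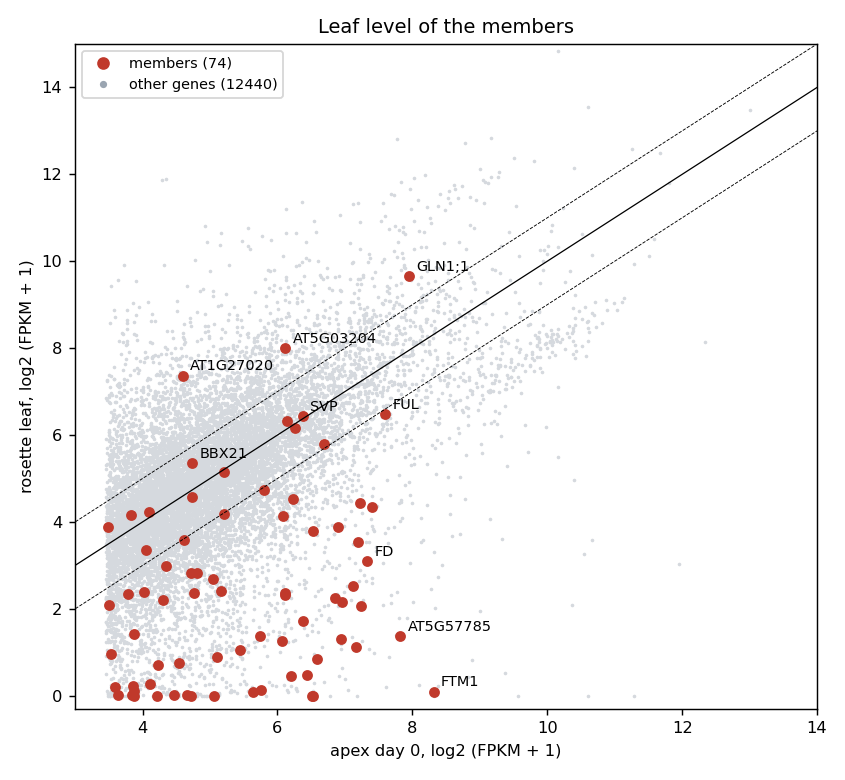
Rosette leaf level against day-0 apex level, both as log2(FPKM + 1) of single merged values, with the 74 members in red and the other genes with at least 10 FPKM at day 0 in grey; the solid line marks equal levels and the dashed lines a difference of 1. Most members lie below the solid line, 60 of them by the rule of size, and 3 lie above it by that rule.

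The 135 genes with the mirror pattern, higher by the same factor at each step, had a median of 12.6 FPKM in leaves, and 20% of them were under 1 FPKM there. They rise where the members fall by construction, and their leaf values are not used by that rule either.

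Transcription factors were frequent among the members. A word for a transcription factor or DNA-binding domain occurred in the RefSeq product name, or B-box in the synonyms, of 25 members (33.8%). Over the 12514 genes the share was 6.49%. BBX21 was counted through its synonyms. The share was 10.3% among the 594 genes of the first step only and 10.6% among the 2090 genes of the second step only. The words were chosen after the members were seen, so the members' share describes this set only. Among the 25 was AGL24, with 13.8 FPKM in leaves, against 118 FPKM at day 0.

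Of the 72 protein-coding members, 26 (36.1%) had a single exon, against 10.2% of all 12281 protein-coding genes of the background, 25.6% of the first-step genes and 15.4% of the second-step genes. The median number of exons was 2 in the members, 3 in the first-step genes, 4 in the second-step genes and 5 over all. The median length of the annotated transcripts was 1290.5 nt in the members and 1732 nt over all.

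**Figure D5:**
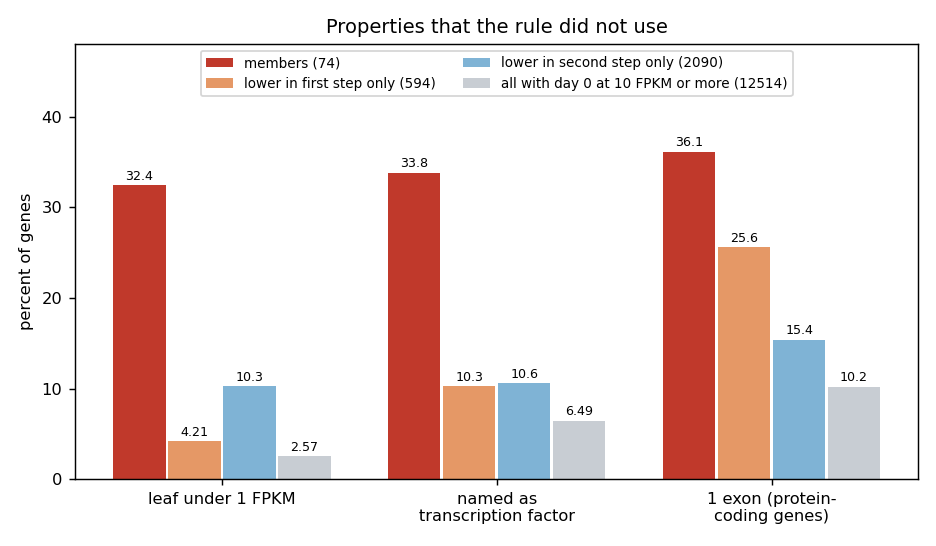
Percent of genes with a level under 1 FPKM in leaves, with a transcription factor word in their annotation and with a single exon (the last over protein-coding genes), for the 74 members, the genes passing the first or the second step only, and all 12514 genes. In each of the 3 properties the members have the highest bar, at 32.4%, 33.8% and 36.1%.

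By chromosome, the members were spread as the background was: 20, 11, 12, 13 and 18 lay on chromosomes 1 to 5, which is 27.0%, 14.9%, 16.2%, 17.6% and 24.3%, against 25.7%, 15.1%, 20.2%, 15.2% and 23.5% of all genes. In 3 cases a member's neighbour was a member too. NSP1, NSP4 and PBP1 form a run on chromosome 3, and AGL72 and AGL71 lie side by side on chromosome 5, each pair on one strand. No 50-base word of AGL71 or AGL72 was found elsewhere in the nuclear genome, so their values can largely be read apart. Words across exon junctions of the other gene were not searched.

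In the window around the start (250 bases before and 50 after) of the 72 protein-coding members, the shares of members with a searched motif were close to or below those of all 27443 promoters of that length. Both strands were searched, and motifs may overlap. The G-box CACGTG occurred in 7 members (9.72%, against 7.68%), the W-box letters TTGACC or TTGACT in 19 (26.4%, against 32.4%) and the auxin response element TGTCTC in 10 (13.9%, against 14.2%). The LEAFY core CCAATG occurred in 8 (11.1%, against 11.2%), the rapid stress response element CGCGTT in 2 (2.78%, against 3.4%) and TATAAA in 39 (54.2%, against 52.1%). The telo-box AACCCTA occurred in 4 members (5.56%, against 8.83%), and the site II letters TGGGCC or TGGGCT in 9 (12.5%, against 21.7%). Among promoters of genes with 10 FPKM at day 0 the site II share was 30.4%. The CArG box, CC and GG around 6 bases of A or T, occurred in 1 member (1.39%, against 3.05%), which was FAF1. Without the 50 bases after the start, the telo-box count was 2 and the LEAFY core count 5. These shares say nothing on whether a factor binds outside the searched window or to variants of these letters.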

How the data were processed

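RNA of 12 libraries in 4 groups was sequenced with a stranded poly(A) protocol, per the labels' protocols. The authors deposited a table of FPKM with a single merged value per gene and group. That unit follows from the range of the values and from the mention of Cufflinks in the submitters' processing notes, which also name CASAVA 1.8.2, Bowtie2 2.1.0, TopHat2 2.0.10 and build TAIR10. The sources used here do not give the annotation, the options or how libraries were merged. Reads of near-identical genes may be split among copies, and since depth is unknown no interval or floor is given.

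The table had 34133 entries and 33559 identifiers, and values of the 567 repeated identifiers, none of them a member, were summed. Ratios called fold are ratios of FPKM. Factors and log2 differences use FPKM + 1, which understates differences of low genes. A gene was higher or lower by the rule of size when log2(FPKM + 1) differed by at least 1 and the higher group had at least 5 FPKM. Names, exons and promoters came from the RefSeq annotation of TAIR10.1, in which all 74 members were found, 42 of them with a name other than their identifier. A 50-base word counted as shared when it occurred, on either strand, in the nuclear genome outside the gene's own span. Annotation of the other place was not consulted, and words across exon junctions of other genes could not be found. Python 3.11.15, pandas 2.3.3 and pysam 0.24.0 were used.

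Named genes were the 10 members with the largest fall, the 10 highest at day 0, the 5 largest at each step, the list members, the 5 highest and 5 lowest in leaves relative to day 0, and 2 genes on each side of each limit; members outside this rule are named to account for the set. The members and lists were chosen with earlier results of these data known, and 6 lists and the transcription factor words after values were seen. Alternatives changed the value added to FPKM, the factor, the day-0 minimum, the repeated identifiers, the scaling, the gene classes kept and the promoter window.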

Additional observations from a re-analysis of the deposited data

How the results depend on the processing

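The number of members, 74, was 190 with a factor of 1.3 and 25 with a factor of 2, and between 54 and 86 under the other alternatives. Of the 74, 21 were kept under every setting and 54 under all but the stricter factor and the stricter day-0 minimum. The 9 members on the inflorescence identity and flowering-time list became 3 with a factor of 2 and were otherwise 8 to 10. The 2 FAF members became 0 with a factor of 2 and 1 with 5 added, and the 2 ALOG members stayed 2. With 5 added to FPKM, 9 members in place of 15 were lower in leaves than in inflorescences. Members lower in leaves than at day 0 numbered 55 to 61. With the promoter window cut to the 250 bases before the start, the telo-box occurred in 2 members in place of 4 and the LEAFY core in 5 in place of 8. These alternatives change the limits themselves. Upper-quartile scaling shifts log2 values by -0.24 in leaves, by 0.03 at day 0, by 0.05 at day 2 and by 0.20 in inflorescences, and left 67 members. No paired analysis was possible because the deposited columns hold 1 merged value per group and carry no libraries; for the same reason no library could be left out, and the depth behind low values is unknown.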
